A study of Homo sapiens with 6 samples.

Results

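BZW2 and its partners and competitors in start codon selection were followed in colorectal cancer cells depleted of BZW2. The set was fixed by name and held 9 genes: BZW2, its paralog BZW1, EIF5, EIF5B, EIF1, EIF1AX and the eIF2 subunit genes EIF2S1, EIF2S2 and EIF2S3. All 9 were found on 1 row each among the 13021 gene identifiers used here, and all 9 were listed in each line. RNA was sequenced from 3 established human colorectal cancer lines, HCT116, HT29 and SW480; the sample titles name the first HCT116WT. In each line, 1 library came from cells with a lentiviral shRNA against BZW2, whose sample titles all carry the hairpin name SH2, and 1 from cells with a non-targeting shRNA (control). Both groups were stable cultures under puromycin selection at 1 µg/ml, so the controls share the lentivirus and the drug. With 1 hairpin name and 1 culture per line, an effect of BZW2 loss and any other effect of that hairpin or of that culture cannot be told apart. Where in the BZW2 mRNA this hairpin binds is unknown here.

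A ribosome finds the start of a coding sequence by scanning the mRNA with a preinitiation complex that carries the initiator tRNA on eIF2, a GTP-binding factor of alpha, beta and gamma subunits. eIF1 and eIF1A hold the complex open for scanning, and eIF1 guards against start codons in a poor sequence context. eIF5 is the GTPase-activating protein of eIF2 and favours commitment to a start codon, and eIF5B then joins the large ribosomal subunit. The BZW proteins, also called eIF5-mimic proteins, share with eIF5 the C-terminal domain that contacts eIF2 but lack its GTPase-activating part, so they compete with eIF5 and make start codon choice stricter. The comparison asked whether the mRNAs of these partners and competitors differ when BZW2 is depleted.

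The start codons of these genes are themselves substrates of the machinery, and 5 of them are printed to cover the contexts met in the set. They were read from GENCODE 29 transcripts (GRCh38) from 12 bases before the start codon to 9 bases after it, 5′ to 3′. Capitals mark the base at position −3, the start codon and the base at position +4, counted from the A of the start codon as +1.
BZW2: gacagaaatTttATGAataagcat
BZW1: cgggtgtctTttATGAataatcaa
EIF1: gaatcgtatCgtATGTccgctatc
EIF5: taataagccAaaATGTctgtcaat
EIF5B: cattgacaaGcaATGGggaagaaa
Around the start codon both BZW paralogs carry the same letters, TttATGAataa, and have neither a purine at −3 nor a G at +4, the bases that define a strong context. EIF1 also lacks both. Among 17635 protein-coding genes read the same way, 1196 (6.78%) lack both. EIF5, EIF1AX, EIF2S1 and EIF2S2 have the purine alone, as do 42.5% of genes. EIF5B and EIF2S3 have both, as do 42.8%. The leader of EIF5 holds 6 upstream ATG triplets and that of EIF2S1 holds 8, that of BZW2 holds 2 and that of EIF1 none, where 53.2% of genes hold at least 1. BZW1 also has annotated forms that start further upstream, which were not used. These are descriptions of the reference sequence, and translation was not measured.

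Depth over the listed genes was lowest in the HCT116 knockdown library at 2187373 reads, and the other 5 libraries held 5078001 to 9317444. The HCT116 pair stood apart: the SD of its log2 ratios over all genes was 1.58, against 0.67 in HT29 and 0.70 in SW480. Its ratios also followed transcript GC content across genes (Spearman 0.659, against 0.311 in HT29 and −0.063 in SW480; genes are not independent replicates). The 9 genes lie on the AT-rich side, with GC contents from 35.1% in EIF1AX to 46.4% in EIF1, all below the median of 47.8% over all genes. For the members, HCT116 values are therefore also given after removal of the trend on GC content and transcript length. Of 11 colorectal epithelial markers, 6 were listed, among them EPCAM, CDH1 and CDX2, and KRT20, VIL1, CDX1, LGALS4 and CDH17 had no value. Their summed level was 4227 to 10410 CPM (scaled reads over library size) in controls and 6682 to 13050 in knockdown libraries, with the widest gap in HCT116 (4227 against 13050). The keratins carried the sum, with KRT8 at 1474 CPM in the HCT116 control and 4731 in the knockdown. EPCAM and CDH1 were lower in every knockdown library, with CDH1 going from 192 to 71.3 CPM (HCT116), 486 to 283 (HT29) and 175 to 59.5 (SW480). KRT18 was higher in every knockdown library, though by little in SW480 (1728 to 1801 CPM). KRT8, KRT19 and CDX2 had no shared direction. Over all genes 20.8% were lower and 23.5% higher in every line, with the TMM scaling used below. Of 12 leukocyte, fibroblast and endothelial markers, at most 1 was listed in any line, at no more than 5.49 CPM. The part of these marker levels in the results was not tested.

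In all 3 lines the BZW2 mRNA was several-fold lower with the BZW2 hairpin, which checks the labels, though less firmly in HCT116 (below). Its gene (ENSG00000136261) lies on the plus strand of chromosome 7, from 16646131 to 16706523 (GRCh38). Levels are given as RPKM, CPM per kb of transcript, scaled between the 2 libraries of a line by TMM. In a bulk culture, fewer cells with a transcript and less of it per cell cannot be told apart. BZW2 went from 40.0 to 7.05 in HCT116, from 81.2 to 7.06 in HT29 and from 43.6 to 5.89 in SW480. The knockdown libraries sat within 5.89 to 7.06 and did not overlap the controls, although the HT29 control stood at 2.03 times the HCT116 control. HT29, with the highest control level, had the lowest remaining share. It kept 8.69% of control (95% counting interval 7.22 to 10.4%), against 13.5% (10.5 to 17.3%) in SW480 and 17.6% (11.7 to 25.6%) in HCT116. Counting intervals are exact Clopper-Pearson intervals, cover counting error only and do not stand for replicate cultures. Fitted over the 3 lines, BZW2 had a log2 fold change of −2.92 ± 0.40 (SE), lower in 3 of 3 lines, but a limma adjusted p = 0.155 that missed the threshold of 0.05. On recovered reads DESeq2 gave an adjusted p of 9.4e-08 and edgeR 0.165. With a line left out, limma gave an adjusted p of 3.09e-04 without HCT116, 0.116 without HT29 and 0.00478 without SW480. Without HT29 or SW480 the variance in the fit came wholly from the pool of all genes. Those p-values therefore do not measure the spread of BZW2 itself. In HT29, 0.0594% of genes had a lower ratio than BZW2 and in SW480 0.296%, whereas in HCT116 6.84% did. After removal of the GC and length trend the HCT116 log2 ratio of BZW2 was −0.89 in place of −2.47, while it remained −3.12 in HT29 and −3.06 in SW480. Genes with a lower ratio then made up 19.5% in HCT116, 0.129% in HT29 and 0.179% in SW480.

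**Figure D1:**
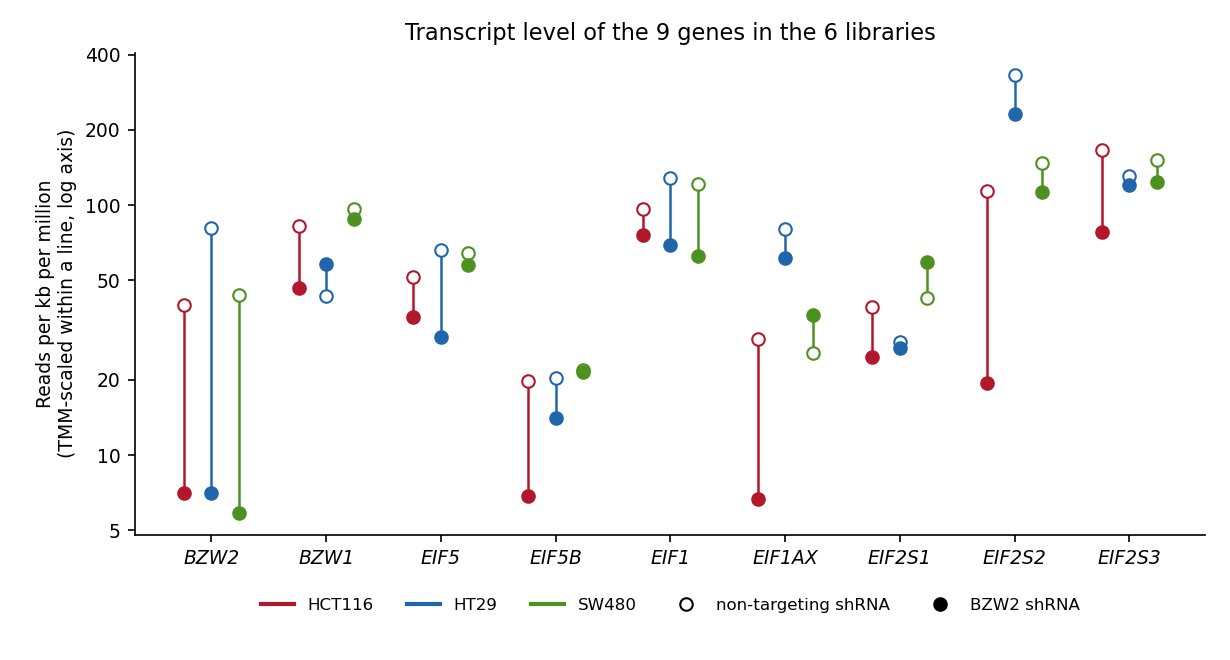
Level of each of the 9 genes in RPKM (log axis), with open circles for the non-targeting shRNA library, filled circles for the BZW2 shRNA library and 1 colour per line. Filled BZW2 circles lie between 5.89 and 7.06 in all 3 lines, EIF1 is lower after knockdown in each line, and BZW1, EIF1AX and EIF2S1 move in different directions in different lines.

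In the control libraries the same 3 genes led in every line: EIF2S3, EIF2S2 and EIF1. EIF2S3, the GTP-binding gamma subunit of eIF2, stood at 130 to 167, EIF2S2, the beta subunit that eIF5 and the BZW proteins contact, at 114 to 333, and EIF1 at 96.8 to 129. EIF2S2 overlapped both of its neighbours in that order, and EIF2S3 and EIF1 did not overlap over the 3 lines. EIF5B was lowest in every control at 19.7 to 21.9, the narrowest spread of the set. EIF2S1, the alpha subunit that stress kinases phosphorylate, was at 28.4 to 42.6 and EIF5 at 51.6 to 66.2. The HT29 control stood apart from both other controls in several genes: BZW2 was at 81.2 against 40.0 in HCT116 and 43.6 in SW480, EIF1AX at 80.7 against 29.1 in HCT116 and 25.6 in SW480, EIF2S2 at 333 against 114 and 147, and BZW1 at 43.3 against 82.9 and 96.9. Each line had its own scaling in the deposited table, and 1 control library per line allows no test of these gaps between lines. Levels of different genes rest on the length of the longest annotated transcript.

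BZW1, the paralog of BZW2, showed no shared direction. Its gene (ENSG00000082153) spans 200810594 to 200827338 of the plus strand of chromosome 2. It went from 82.9 to 46.8 in HCT116, from 43.3 to 58.2 in HT29 and from 96.9 to 87.8 in SW480. HT29, the line with the lowest control level of BZW1, was the 1 line in which it was higher, at 135% of control (128 to 142%). It stood at 56.5% (51.8 to 61.5%) in HCT116 and at 90.6% (86.5 to 95%) in SW480. Fitted over the lines it had a log2 fold change of −0.14 ± 0.39 (95% interval −1.02 to 0.73, limma adjusted p = 0.862), and −0.44 without HT29 or 0.17 without HCT116. After removal of the GC and length trend BZW1 stood at 0.78, 0.79 and −0.09 on the log2 scale (HCT116, HT29, SW480), so the HCT116 direction turned.

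The balance between the paralogs can be read within a library, where library scaling drops out. BZW2 made up 32.6% of the summed per-kb reads of both paralogs in the HCT116 control (30.5 to 34.6%), 65.3% in HT29 (63.8 to 66.6%) and 31.0% in SW480 (28.9 to 33.2%). Only the HT29 control held more BZW2 than BZW1. After knockdown the share was 13.1% (9.10 to 17.9%), 10.8% (9.18 to 12.6%) and 6.29% (5.02 to 7.75%). BZW1 was the major paralog in all 3 knockdown libraries. The mean difference was −32.9 percentage points ± 18.9 (SD, n = 3 lines), lower in 3 of 3 lines, with an exact two-sided sign-flip permutation p = 0.25, the smallest that 3 lines allow. It was 0.375 after Benjamini-Hochberg adjustment over 6 ratios computed. The share depends on the length used. With the longest annotated coding length of each gene (1353 bases for BZW1 and 1257 for BZW2) the controls stood at 13.7%, 38.2% and 12.9%. BZW1 then led in HT29 too, and the mean difference was −18.0 points. The reads were not limited to coding sequence, so coding length is not matched to them. With the length of the transcript used for the start codon, the HT29 control stood at 68.0%.

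EIF5, the competitor of the BZW proteins for eIF2, was lower in each knockdown library, with most of the difference in HT29. Its gene (ENSG00000100664) lies at 103333544 to 103345025 on the plus strand of chromosome 14. It went from 66.2 to 29.8 in HT29, from 51.6 to 35.8 in HCT116 and from 64.5 to 57.7 in SW480. HT29 kept 45.1% of control (42.5 to 47.8%), where 4.80% of genes had a lower ratio. HCT116 kept 69.3% (62.2 to 77.1%) and SW480 89.6% (84.2 to 95.3%). Over the lines EIF5 had −0.58 ± 0.37 on the log2 scale (limma adjusted p = 0.456) and −0.30 without HT29. After trend removal EIF5 was still at −0.96 in HT29 but at 0.63 in HCT116.

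EIF5B (ENSG00000158417, chromosome 2, 99337353 to 99401326, plus strand), which encodes the subunit-joining GTPase, differed by line. It went from 19.7 to 6.90 in HCT116, from 20.4 to 14.1 in HT29 and from 21.9 to 21.6 in SW480. The narrow control range of 19.7 to 21.9 thus opened to 6.90 to 21.6. SW480 kept 98.6% of control with a counting interval of 88.7 to 110% that includes equality. HCT116 kept 35.0% (27.3 to 44.3%), a log2 ratio of −1.50 that became 0.03 after trend removal. Its log2 fold change over the lines was −0.65 ± 0.40 (limma adjusted p = 0.445), and −0.25 without HCT116.

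EIF1, the guardian of start codon stringency, was lower in every knockdown library and most evenly so in HT29 and SW480. Its gene (ENSG00000173812) spans 41688885 to 41692668 on the plus strand of chromosome 17. It went from 96.8 to 75.9 in HCT116, from 129 to 69.2 in HT29 and from 122 to 62.6 in SW480. All 3 control libraries lay above all 3 knockdown libraries, as also for BZW2 and for EIF2S3 (control 130 to 167, knockdown 78.3 to 124). The share of all genes that separate in this way was not counted, and each line had its own scaling. SW480 kept 51.4% of control (47.2 to 55.9%) and HT29 53.7% (50.4 to 57.2%), with 8.03% and 7.68% of genes at lower ratios. HCT116 kept 78.4% (69.5 to 88.2%). EIF1 had a log2 fold change of −0.70 ± 0.36 (95% interval −1.50 to 0.10, limma adjusted p = 0.391), and −0.90 without HCT116 (limma adjusted p = 0.0824). EIF1 has the highest GC content of the 9 genes, and its log2 ratios after trend removal were −0.12, −0.92 and −1.08, against −0.35, −0.90 and −0.96 before. As shown above, its start codon lies in a context with neither favoured base, as does that of BZW1, which had no shared direction. A link between context and mRNA level was not tested.

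EIF1AX, which encodes the scanning factor eIF1A, went opposite ways in different lines. Its gene (ENSG00000173674) spans 20124518 to 20141844 on the minus strand of chromosome X. It went from 29.1 to 6.69 in HCT116 and from 80.7 to 61.2 in HT29, but from 25.6 to 36.4 in SW480. The HCT116 library kept 23.0% of control (17.3 to 30.1%), HT29 75.9% (72.0 to 80.0%) and SW480 142% (128 to 158%). EIF1AX has the lowest GC content of the set, and its HCT116 log2 ratio was −0.40 after trend removal in place of −2.10. Over the lines it stood at −0.63 ± 0.50 on the log2 scale (limma adjusted p = 0.532), and at 0.085 without HCT116.

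Of the eIF2 subunits, EIF2S2 and EIF2S3 were lower in all 3 lines, most of all in HCT116, and EIF2S1 had no shared direction. EIF2S2 (ENSG00000125977, chromosome 20, 34088298 to 34112332, minus strand) went from 114 to 19.4 in HCT116, from 333 to 233 in HT29 and from 147 to 113 in SW480. HCT116 kept 17.1% of control (13.9 to 20.9%), as low as BZW2 in the same pair, while HT29 kept 69.9% (67.5 to 72.3%) and SW480 76.4% (71.7 to 81.5%). The HCT116 log2 ratio was −2.54 before and −2.18 after trend removal, with 4.35% of genes then lower. The log2 fold change was −1.11 ± 0.47 (limma unadjusted p = 0.0419, adjusted p = 0.359), and −0.42 without HCT116.

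EIF2S3 (ENSG00000130741, chromosome X, 24054716 to 24077971, plus strand) went from 167 to 78.3 in HCT116, from 130 to 121 in HT29 and from 151 to 124 in SW480. It kept 47.0% of control in HCT116 (42.4 to 52.0%), 92.5% in HT29 (88.1 to 97.2%) and 82.2% in SW480 (77.4 to 87.2%), with a log2 fold change of −0.46 ± 0.37 (limma adjusted p = 0.542) and −0.17 without HCT116. After trend removal its HCT116 log2 ratio was −0.37 in place of −1.09. EIF2S1 (ENSG00000134001, chromosome 14, 67359997 to 67386516, plus strand) went from 39.3 to 24.6 in HCT116, from 28.4 to 26.9 in HT29 and from 42.6 to 59.4 in SW480. Its SW480 value was 140% of control (129 to 151%), while in HT29 the counting interval of 87 to 103% included equality. The log2 fold change was −0.06 ± 0.38 (limma adjusted p = 0.947), and the HCT116 log2 ratio was 0.59 after trend removal in place of −0.67.

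**Figure D2:**
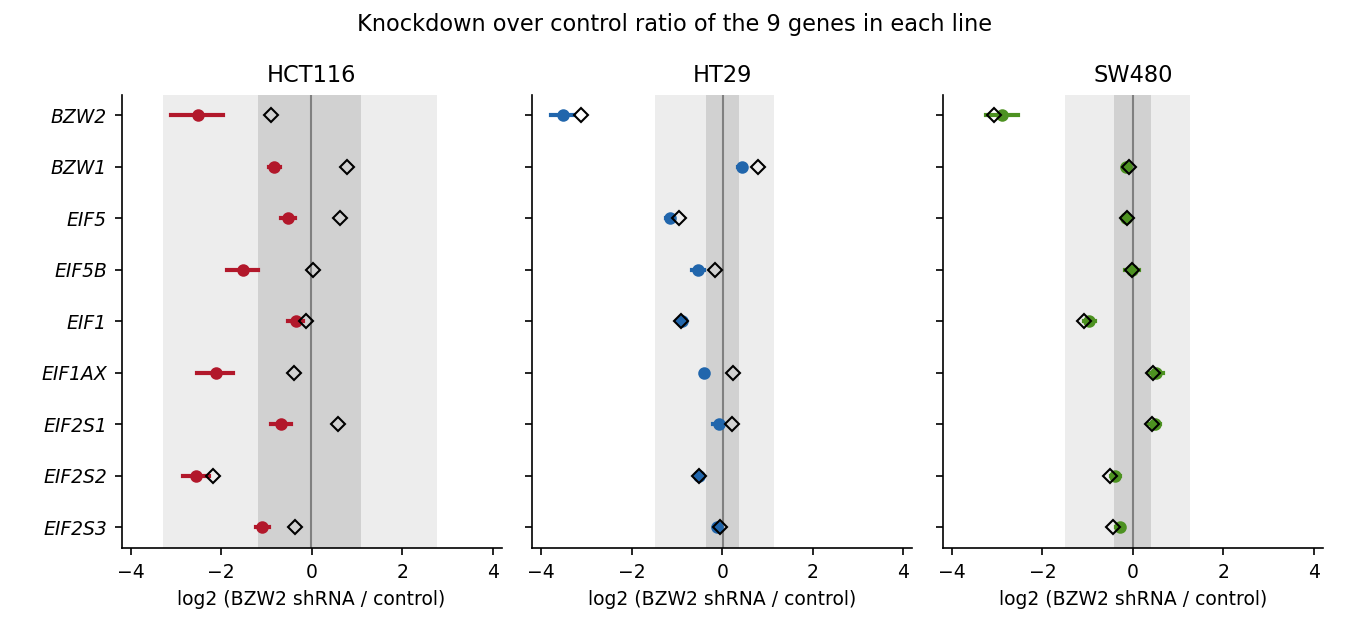
log2 ratio of BZW2 shRNA over control for the 9 genes, 1 panel per line, with coloured points and bars for the ratio and its 95% counting interval and open diamonds for the ratio after removal of the GC and length trend. Grey bands hold the central 50% and 95% of all genes; in HT29 and SW480 BZW2 lies far outside them and EIF1 and EIF5 (HT29) or EIF1 (SW480) lie in the lower part of the outer band, while in HCT116 all 9 genes lie inside.

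Taking the 8 genes other than BZW2 as a set, none passed the threshold across lines. The limma test called 0 of 8, where 0% of 10875 genes were called lower and 0% higher. Over all genes edgeR called 0 and DESeq2 244, and neither called any of the 8. At an unadjusted p under 0.05 in limma, 1 of the 8 was lower, EIF2S2, against 7.04% of all genes lower and 6.59% higher. All 8 had a negative fold change, as did 5317 of 10875 genes, and their median was −0.60, against 0.02 over all genes. The shared sign was lost with the GC and length correction. BZW1 (0.53), EIF1AX (0.14) and EIF2S1 (0.44) were then positive, and EIF1, EIF5, EIF5B, EIF2S2 and EIF2S3 stayed negative. In HCT116, 4 of the 8 were at least 2-fold lower (EIF2S2, EIF1AX, EIF5B and EIF2S3), where 28.8% of all genes were, and none was at least 2-fold higher, where 26.8% were. In HT29, 1 was (EIF5), where 6.17% were lower and 3.74% higher, and in SW480 none, where 7.36% were lower and 4.98% higher. The medians of the 8 were −0.96, −0.46 and −0.15 in HCT116, HT29 and SW480, and −0.05, −0.10 and −0.11 after trend removal. After that removal, 1 of the 8 was at least 2-fold lower in HCT116 (EIF2S2), where 17.1% of genes were lower and 17.8% higher. In HT29 it was 0, where 4.49% were lower and 4.12% higher, and in SW480 1 (EIF1), where 6.74% were lower and 4.73% higher. Scaling HCT116 by library size alone gave 5 of the 8, BZW1 added, with 35.7% of genes lower and 19.8% higher. At 1.5-fold, 6 of the 8 were lower in HCT116 (37.8% of genes lower, 36% higher), 2 in HT29 (15.7% lower, 13.6% higher) and 1 in SW480 (17.5% lower, 15.3% higher), and none was higher.

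Lower in every line were 5 of the 8: EIF5, EIF5B, EIF1, EIF2S2 and EIF2S3. Over all genes 20.8% were lower and 23.5% higher in every line. EIF5B left this count with library size scaling, where 21.4% of genes were lower, and with the authors' scaling, where 19.4% were, since its SW480 log2 ratio of −0.02 became 0.03 and 0.01. Leaving out HCT116, 5 of 8 were lower in both other lines, against 29.8% of genes. With ratios corrected for GC content and length, 3 of 8 remained lower in every line (EIF1, EIF2S2 and EIF2S3), against 18.5% of genes, and 26.8% were higher in every line. Counting intervals excluded equality for 78.9% of genes in HCT116, 66.8% in HT29 and 60.8% in SW480.

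**Figure D3:**
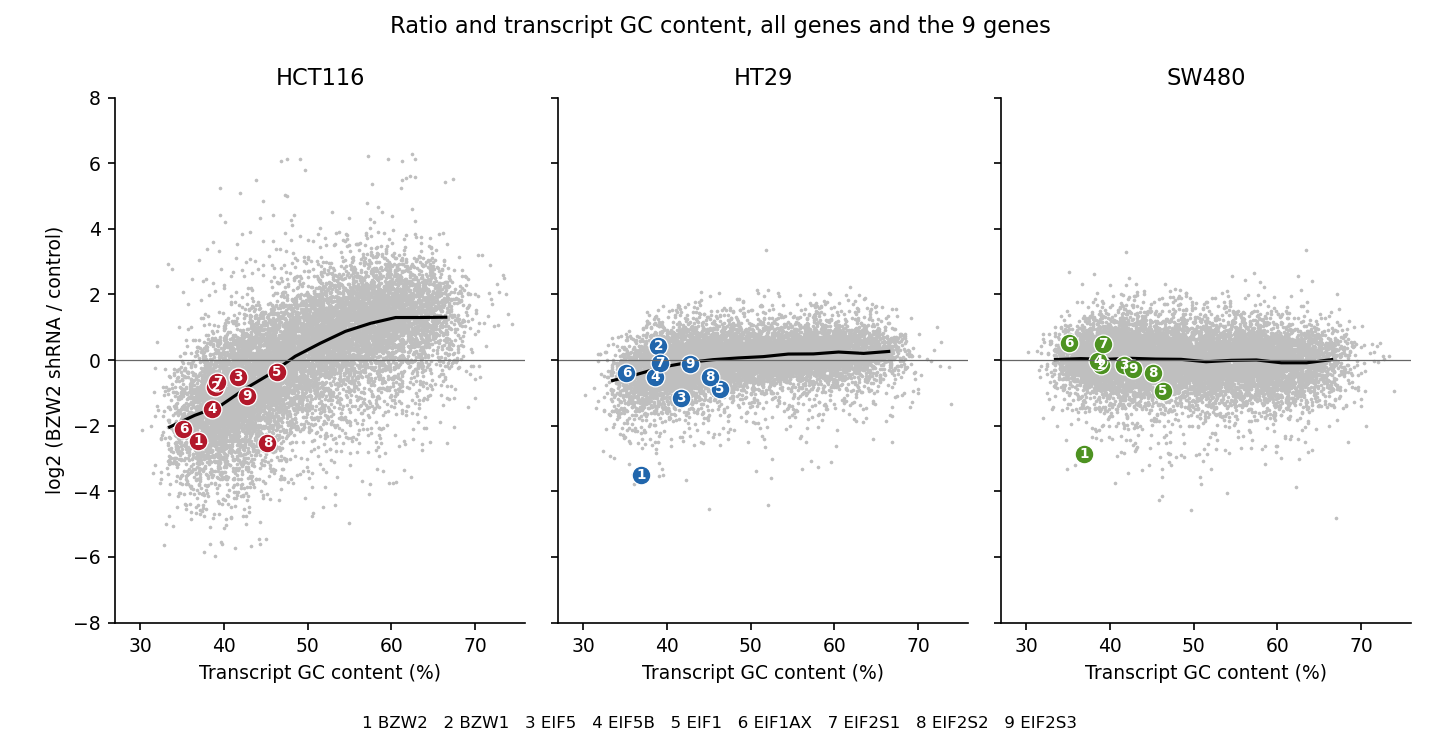
log2 ratio of BZW2 shRNA over control against transcript GC content in percent, 1 panel per line, with grey points for all genes with at least 5 CPM, a black line for the median in bins of GC content, and numbered points for the 9 genes. In HCT116 most of the 9 genes lie near the black line and EIF2S2 (8) lies well below it. In HT29 and SW480 BZW2 (1) lies far below the black line and EIF1 (5) moderately so, as does EIF5 in HT29.

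The balance between competing factors was also read within each library. The per-kb ratio of EIF5 to the summed BZW paralogs went from 0.42 to 0.66 in HCT116 and from 0.46 to 0.62 in SW480, but from 0.53 to 0.46 in HT29. BZW2, the target of the hairpin, is part of that sum, so its depletion by itself raises the ratio. In SW480, EIF5 and BZW1 kept nearly equal shares of control (89.6% and 90.6%). EIF5 was lower in every line and most so in HT29, which was also the 1 line with higher BZW1. The mean log2 difference of EIF5 over the summed paralogs was 0.29 ± 0.46 (SD, n = 3 lines, exact permutation p = 0.5). It was −0.12 with coding lengths, which are not matched to the reads, so its sign depends on the length used. With the lengths of the transcripts used for the start codons it was 0.35. The ratio of EIF1 to EIF5 was nearly equal in the 3 controls, at 1.88 (HCT116), 1.95 (HT29) and 1.89 (SW480). It stood at 2.12, 2.32 and 1.08 after knockdown, so SW480 went the other way. The mean log2 difference was −0.12 ± 0.59 (SD, n = 3 lines; exact permutation p = 1.00), and 0.21 without SW480.

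Within eIF2 the beta subunit mRNA was lower relative to both others in every line, though only slightly so against EIF2S3 in SW480. No counting intervals were computed for these ratios, so differences near 0 may not differ from equality. EIF2S2 over EIF2S1 went from 2.90 to 0.79 in HCT116, from 11.7 to 8.65 in HT29 and from 3.46 to 1.90 in SW480, a mean log2 difference of −1.06 ± 0.74 (SD, n = 3 lines), and −0.65 without HCT116. EIF2S2 over EIF2S3 had log2 differences of −1.46, −0.40 and −0.10, with a mean of −0.66 and −0.25 without HCT116, and EIF2S3 over EIF2S1 of −0.42, −0.03 and −0.76, with a mean of −0.40 and −0.22 without SW480. Each of the 3 subunit ratios was lower in 3 of 3 lines, with an exact two-sided permutation p = 0.25, the smallest possible, and 0.375 after adjustment over the 6 ratios. The fold in these ratios does not depend on the length used, since each is between single genes. The 3 subunit ratios share genes and are not separate observations. They were not among the ratios planned at the start, so their p-values are a description only.

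**Figure D4:**
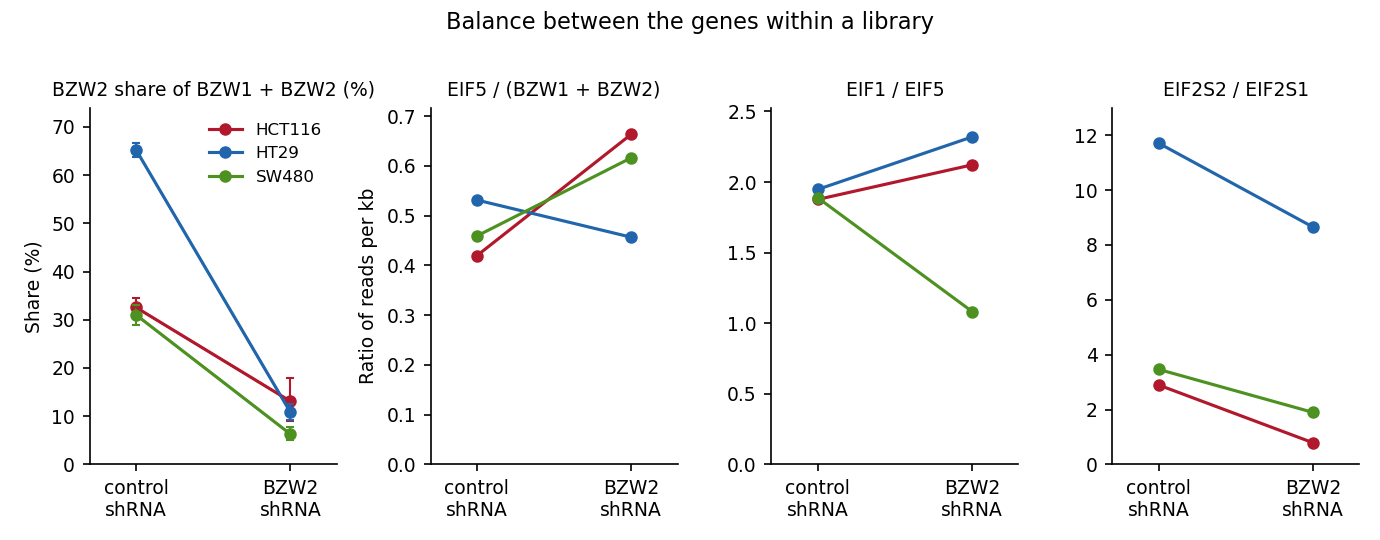
Balance between genes within each library, control shRNA on the left and BZW2 shRNA on the right of each panel, 1 line per cell line; the first panel gives the BZW2 share of BZW1 plus BZW2 in percent with 95% counting intervals, the others ratios of reads per kb. The BZW2 share is lower in all 3 lines, EIF5 over the BZW paralogs and EIF1 over EIF5 each go one way in 2 lines and the other way in 1 (HT29 and SW480), and EIF2S2 over EIF2S1 is lower in all 3.

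Other initiation genes lay on both sides of 0, and their difference from the 8 was not tested. Of 32 tested, from a list of 33 that covered eIF3, eIF2B, eIF4 and accessory start codon factors, 10 had a negative fold change and the median was 0.19. By line the medians were 0.21, 0.19 and 0.22 (HCT116, HT29, SW480), and 0.70, 0.23 and 0.14 after trend removal. None passed over all genes in limma; at an unadjusted p under 0.05, 0 were lower and 4 higher. In all 3 lines 5 were lower and 12 higher, against 20.8% and 23.5% of all genes. The lowest of one sign were EIF3E, an eIF3 subunit, at −0.73 ± 0.41, and EIF2A, an alternative initiator tRNA factor, at −0.68 ± 0.40. The highest were EIF3B, the scaffold subunit of eIF3, at 1.10 ± 0.45, and EIF5A, the hypusinated factor that helps ribosomes through difficult peptides, at 1.03 ± 0.37 (limma adjusted p = 0.351 and 0.327). EIF3B drew on HCT116, with log2 ratios of 2.26, 0.31 and 0.62, and 1.23, 0.20 and 0.68 after trend removal. EIF3E had −1.64, −0.28 and −0.38, and −0.16, 0.02 and −0.60 after trend removal, so that its single sign was lost.

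Genes whose mRNAs are known for control by upstream start codons were mostly lower by count. Among the 13 tested of 14 the median was −0.71, and 9 were on the negative side, against 5317 of 10875 genes. Lower in every line were 8, where 20.8% of all genes were, and higher in every line 0, where 23.5% were. None passed over all genes in limma, and 4 were lower at an unadjusted p under 0.05, where 7.04% of all genes were. The medians by line were −0.63, −0.46 and −0.25, and −0.17, −0.54 and −0.30 after trend removal. The largest were DDIT3, the stress transcription factor CHOP, at −3.74 ± 0.46, and IBTK, whose leader carries stress-responsive upstream frames, at −1.14 ± 0.45. By line, IBTK had log2 ratios of −2.32, −1.02 and −0.19 (HCT116, HT29, SW480), and −0.59, −0.54 and −0.17 after trend removal. PPP1R15A, which directs dephosphorylation of eIF2 alpha, stood at −1.13 ± 0.46, and ATF4, the transcription factor of the integrated stress response, at −1.10 ± 0.40; these were named after their values were seen. By line, PPP1R15A had log2 ratios of −0.09, −1.34 and −2.06, and −1.19, −1.53 and −2.08 after trend removal. Its HCT116 ratio was thus near 0 before that removal. ATF4 had −1.84, −0.34 and −1.22, and −2.76, −0.53 and −1.27 after it. Several of these genes are also stress targets at the level of transcription, and mRNA levels do not show which start codon was used.

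The genes nearest to a member in their 3 within-line log2 ratios were sought by Euclidean distance among 8275 genes with at least 20 reads in every library. For BZW2 the nearest was NDRG1, a stress-responsive growth gene, at a distance of 1.05, then ATF3 at 1.86 and P4HA1 at 1.89. BZW1 had CADM4, GALNT10 and HSD17B4 within 0.09 to 0.13, and EIF5 had FNBP4 at 0.07, PFKFB2 at 0.18 and MT-CYB at 0.23. The distance rests on 3 points per gene and is a description.

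Reads of some members can be shared with copies elsewhere. Windows of 50 bases of the longest transcript were compared with all other GENCODE transcripts: BZW2, EIF5B and EIF2S1 shared 0%, EIF5 1.12%, EIF1 3.90%, EIF1AX 6.92%, BZW1 12.6%, EIF2S2 22.6% and EIF2S3 23.2%. Most of the BZW1 overlap was with the pseudogene BZW1P2, that of EIF2S2 with EIF2S2P4, and that of EIF2S3 with the retrocopy EIF2S3B. The coding sequences of BZW1 and BZW2 are 70.9% identical over 1242 aligned bases with a longest identical run of 17 bases. Exons on the opposite strand overlap 2.55% of the exonic bases of BZW1, 3.80% of BZW2, 4.76% of EIF2S1 and 10.8% of EIF5B, the last from REV1. The sources used here do not say whether the counting used strand or shared reads, and the values of EIF2S2 and EIF2S3 and, less so, of BZW1 and EIF5B carry that uncertainty.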

How the data were processed

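RNA-seq was used in 6 libraries, with the group taken from the treatment label and the pairing from the cell line label. Per the submitters' processing notes, bcl2fastq 2.17, STAR 2.5.2b and DESeq were used with GRCh38. For the gene counter, annotation release, strandedness and read length: not given in the sources used here. The deposited table holds a normalised signal per gene, gene reads divided by a size factor set by the authors for the 2 libraries of each line, and it lists a gene in a line from 21 reads over both libraries. Each value divided by the smallest step of its column gave whole reads (100% within 0.1 read). In the SW480 control the smallest value stood for 2 reads. Left out were 19 identifiers repeated over several rows.

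Across lines, limma 3.58.1 (R 4.3.3) was fitted with an intensity trend to log2(value + 1) of 10875 genes listed in all lines, with line and treatment as terms. The fit has 2 residual and 7.26 prior degrees of freedom. A low-value filter (3 or more libraries at 1 or above) removed 0 genes. Tests were two-sided, with Benjamini-Hochberg adjusted p under 0.05 over all genes. Fold changes on this scale understate low genes. Nothing in the labels names repeat cultures, so the only spread available to the tests is that among lines. Most of the variance weight of a gene comes from the prior, which pools all genes, and less from its own spread among lines. The 2 libraries of a line deviated together (correlations 0.276, 0.754 and 0.450 in HCT116, HT29 and SW480). Within a line there is no test: ratios are of TMM-scaled CPM (edgeR 4.0.16, prior count 2 for log2 ratios), and background shares use genes with at least 5 CPM in the higher library. With scaling by library size alone, the median HCT116 log2 ratio over all genes is −0.39 in place of −0.08. GC content and length are those of the longest GENCODE 29 transcript, and their trend was removed by splines with 4 degrees of freedom each. The start codon shown is that of the complete CCDS and APPRIS transcript with the best support level. DESeq2 1.42.0 and edgeR quasi-likelihood on recovered reads, other pseudocounts, filters and scalings, and leaving out each line were tried. Only the limma fit was tried on simulated data, which had the same effect in every line and no GC trend. All members are named; other genes were named by a rule on the size of fold change with 1 sign in all lines, or on distance. Members and lists were chosen with earlier results of these data known.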

Additional observations from a re-analysis of the deposited data

Results flagged for a closer look

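BZW1, EIF1AX and EIF2S1 stood out because their counting intervals lay on opposite sides of equality in different lines. BZW1 had a log2 ratio of 0.43 in HT29, against −0.82 for HCT116 and −0.14 for SW480. EIF1AX had −2.10 in HCT116 and −0.40 in HT29 but 0.51 in SW480. EIF2S1 had −0.67 in HCT116 and 0.48 in SW480. With 1 library per line and treatment, the difference between lines was not tested for any of the 3 genes. After removal of the GC and length trend, BZW1 was at 0.78 in HCT116 and 0.79 in HT29, EIF1AX at −0.40, 0.25 and 0.45 in HCT116, HT29 and SW480, and EIF2S1 at 0.59, 0.22 and 0.42.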

How the results depend on the processing

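The count of 0 of 8 called members held under all 13 alternatives, and EIF1, EIF5, EIF5B, EIF2S2 and EIF2S3 had a negative fold change in all 13, though the GC and length correction left −0.017 for EIF5B, −0.13 for EIF5 and −0.26 for EIF2S3, against −0.69 for EIF1 and −1.05 for EIF2S2. BZW2 passed with DESeq2 (−2.99) and ranged from −3.16 to −2.64 with a line left out, passing without HCT116 or SW480. The pass without SW480 rests on a variance pooled over all genes. Left-out lines gave −0.44 to 0.17 for BZW1, −1.22 to 0.085 for EIF1AX and −0.34 to 0.23 for EIF2S1. The GC and length correction with the replicate block gave 0.53, 0.14 and 0.44 for these 3, and the cause was not tested. Over all genes, 0 were called in the main limma fit, 244 by DESeq2 and 57 to 338 with a line left out: 338 without HCT116, 57 without HT29 and 137 without SW480. With the correction, the members at least 2-fold numbered 1, 0 and 1 (HCT116, HT29, SW480), and 3 were lower in every line. At 1.5-fold the counts were 6, 2 and 1 in the same order. The pairing by line matters to the fit: with no replicate block BZW2 stood at −2.92 with a limma adjusted p of 1.00. Depth limits the HCT116 knockdown library most, where BZW2 rests on 29 reads.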

Other observations

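The genes of eIF2B, the factor that reloads eIF2 with GTP, were picked out after the values were seen. All 5 subunit genes were higher in every line, where 23.5% of all genes were. Their log2 fold changes were 0.85 ± 0.40 for EIF2B1, 0.82 ± 0.44 for EIF2B2, 0.47 ± 0.39 for EIF2B3, 1.02 ± 0.49 for EIF2B4 and 0.99 ± 0.40 for EIF2B5 (SE, n = 3 lines). None passed over all genes, with limma adjusted p from 0.351 to 0.547. After removal of the GC and length trend the HCT116 log2 ratios ranged from 0.65 to 1.94, those of HT29 from 0.04 to 0.36 and those of SW480 from 0.16 to 0.87. Each thus stayed positive, where 26.8% of all genes were higher in every line. The HT29 value of EIF2B4 was 0.06 before and 0.04 after.

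Median ratios by start codon context lay between −0.13 and 0.15. Genes with neither favoured base, the class of BZW1, BZW2 and EIF1, had median log2 ratios of −0.13, −0.01 and −0.04 (HCT116, HT29, SW480), over 647, 563 and 639 genes. Genes with both had 0.03, 0.04 and 0.04, those with the purine alone −0.09, 0.0042 and 0.01, and those with the G alone 0.15, −0.0011 and 0.02. After trend removal the medians were −0.00073, 0.02 and −0.04 for neither, 0.08, 0.09 and 0.04 for both, 0.02, 0.06 and 0.02 for the purine alone and 0.08, 0.04 and 0.02 for the G alone. These are medians across genes within single libraries and were not tested.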
